A study of Mus musculus with 10 samples.

Results

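The immunoglobulin and plasma cell genes of the abdominal aorta were read from 28 probe sets of 9 genes, out of 45037 probe sets that are not controls and 18193 genes with a probe set of their own. The genes were Ighm and Igk, which stand for the immunoglobulin heavy and light chains, and Jchain, Mzb1, Xbp1, Pou2af1, Tnfrsf17, Derl3 and Sdc1, which belong to the antibody-secreting plasma cell. A probe set was taken if the platform annotation gives it exactly 1 gene symbol and that symbol is on the list of 10 genes. No probe set had Igkc, the constant region of the kappa light chain, as its only symbol, so no value is given for it. Ighm had 11 probe sets, Igk, Xbp1 and Sdc1 had 4 each, and the other 5 genes had 1 each.

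RNA of the abdominal aorta came from 6 KCASP1Tg mice and 4 wild-type (WT) mice that were 16 weeks old, and each mouse had 1 GeneChip Mouse Genome array. KCASP1Tg mice are females with a human caspase-1 transgene, driven by the keratin 14 promoter, and have dermatitis, and the WT mice are C57BL/6 littermates. This is a keratinocyte promoter, so the transgene was aimed at the skin and not at the artery that was sampled. The sample labels call the tissue a dechorionated abdominal aorta, and the methods count 8 mice where 10 arrays were analysed here. The question put to these genes was whether their transcripts in the aorta differ between mice with this skin inflammation and their littermates.

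A B cell that meets its antigen can become a plasma cell, which makes and secretes antibody built from heavy and light chains. The factor XBP1 then widens the endoplasmic reticulum, chaperones such as MZB1 help to assemble the chains, and the J chain links IgM and IgA into their polymers. B cells also transcribe immunoglobulin genes and Pou2af1, and epithelial cells carry syndecan-1, the product of Sdc1, so none of these transcripts belongs to plasma cells alone.

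The signals are linear MAS5.0 intensities with a trimmed mean of 500 on every array, and differences are KCASP1Tg minus WT on the log2 scale. The limma test was run on probe sets whose signal reached 100 on 4 or more arrays, and a call means an adjusted p under 0.05 over all 26242 probe sets tested. This kept 22 of the 28 probe sets, and the other 6 are given with an unadjusted two-sided exact Mann-Whitney p, of which the smallest that 6 against 4 arrays allow is 0.00952. In the probe set names of this platform the ending _s_at marks probes shared by transcripts of different genes, _a_at probes shared by transcripts of 1 gene, and _x_at probes similar to other sequences. Immunoglobulin genes share long stretches of sequence, so the Ighm and Igk probe sets may also read other heavy or light chains. In RNA of whole tissue, more cells of a type and more RNA per cell cannot be told apart.

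Arterial smooth muscle markers had a mean log2 signal of 10.37 to 12.23 on the KCASP1Tg arrays and 11.79 to 12.11 on the WT arrays and were thus present on every array. So were adipocyte markers, with means of 12.45 to 13.62 on the KCASP1Tg arrays and 12.64 to 13.11 on the WT arrays. The RNA was therefore not of the artery wall alone. The array of KCASP1Tg 4 stood apart. It had the lowest smooth muscle mean, 10.37 against 11.66 to 12.23 on the other KCASP1Tg arrays, and the highest mean of 4 lymph node markers, 10.88 against 4.67 to 7.08. On the WT arrays the lymph node mean was 3.62 to 5.52. KCASP1Tg 3 (7.08), KCASP1Tg 1 (6.62) and KCASP1Tg 6 (5.74) thus also lay above every WT array, and KCASP1Tg 2 and 5 lay within the WT range. Glycam1, a mucin of lymph node vessels, had a signal of 22908 on KCASP1Tg 4 and 622 on KCASP1Tg 3. It had 4.82 to 136 on the other KCASP1Tg arrays and 3.05 to 127 on the WT arrays. The 7 liver markers had a mean log2 signal of 4.69 to 8.18 on the KCASP1Tg arrays, against 13.81, 7.01, 12.24 and 9.05 on WT 1 to WT 4, and the 6 heart muscle markers were highest on WT 4, at 12.52, and then on KCASP1Tg 1, at 11.74, and KCASP1Tg 2, at 10.92. The 9 measured neutrophil markers separated the groups, with means of 8.38 to 11.64 on the KCASP1Tg arrays and 5.62 to 5.74 on the WT arrays. Of the 8 tested, 2 were called higher, S100a8 and S100a9, against 0.0686% of all tested probe sets. Without KCASP1Tg 4 that count was 6, against 0.236%, with Ngp, Camp, Lcn2 and Mmp8 added. The part of these other tissues and cells in the signals below was not tested, and differences without KCASP1Tg 4 are given for each tested member probe set.

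The kappa light chain gave the only call among the 28 probe sets. The Igk probe set 1425738_at had a lowest signal of 286, a median of 1389 and a highest of 10479 on the KCASP1Tg arrays, and signals of 17.3, 3.99, 4.07 and 3.11 on WT 1 to WT 4. It was dark on every WT array and bright on every KCASP1Tg array, so the groups lay far apart. It rose by a log2 difference of 8.03 (SE 0.99, 95% interval 5.84 to 10.22, limma adjusted p = 0.0169). No WT array reached a signal of 100, and the size of the difference rests on WT signals near the bottom of the scale. With a pseudocount of 50 it was 4.74 and the adjusted p was 0.116, and with signals below 16 set to 16 it was 6.45 with an adjusted p of 0.0413. The call held without KCASP1Tg 4, with a difference of 7.46 and an adjusted p of 0.00858. It was lost without KCASP1Tg 1 (adjusted p = 0.0645), WT 2 (0.0748), WT 3 (0.0874) or WT 4 (0.0719), with differences of 7.76 to 7.92.

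A second Igk probe set, 1452557_a_at, was measured in both groups. Its signals were 464 at the lowest, 524 at the median and 1171 at the highest on the KCASP1Tg arrays, and 327, 317, 107 and 85.2 on WT 1 to WT 4. The groups did not overlap, but the lowest KCASP1Tg signal was close to those of WT 1 and WT 2. The log2 difference was 1.83 (SE 0.44) with an adjusted p of 0.229, and it was not called. Without KCASP1Tg 4 it was 1.65. Of the 2 Igk probe sets below the filter, 1427757_at had signals of 5.11 to 729 on the KCASP1Tg arrays and 2.75 to 5.89 on the WT arrays, with a difference of 3.79 (exact p = 0.0190). The other, 1426178_at, had 29.3 to 369 on the KCASP1Tg arrays and 3.09 to 32.4 on the WT arrays, with a difference of 3.0 (exact p = 0.0190). In each of them the lowest KCASP1Tg array lay below the highest WT array, and all 4 Igk probe sets were highest on KCASP1Tg 4.

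Of the 11 heavy chain probe sets, 10 had a positive difference, and none of the 8 tested was called. Ighm is the mu chain of IgM, and its probe set with the highest mean signal, 1427351_s_at, had a lowest signal of 16954, a median of 18959 and a highest of 33602 on the KCASP1Tg arrays. On WT 1 to WT 4 it had signals of 9791, 5673, 1526 and 1631. Every KCASP1Tg array lay above every WT array, and among the WT arrays WT 1 and WT 2 lay well above WT 3 and WT 4. The log2 difference was 2.70 (SE 0.51) and the adjusted p was 0.118, and without KCASP1Tg 4 the difference was 2.59. It passed without WT 1, with a difference of 3.21 and an adjusted p of 0.0470.

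The probe set 1427329_a_at had the same order of KCASP1Tg mice. Its signals were 5717, 9920 and 29132 at the lowest, median and highest KCASP1Tg array, and 3756, 2380, 550 and 528 on WT 1 to WT 4, with a log2 difference of 3.26 (SE 0.65, adjusted p = 0.125) that was 3.01 without KCASP1Tg 4. For both probe sets KCASP1Tg 4 and KCASP1Tg 3 were highest and KCASP1Tg 6 was lowest among the transgenic mice.

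Other Ighm probe sets were dim in WT aortas and spread widely over the KCASP1Tg arrays. The probe set 1425385_a_at had signals of 637, 2650 and 39664 at the lowest, median and highest KCASP1Tg array, against 56.7, 62.9, 59.2 and 54.4 on WT 1 to WT 4. The WT arrays were here within a narrow band, while KCASP1Tg 4 had a signal far above those of the other KCASP1Tg arrays. The log2 difference was 5.79 (SE 1.07) with an adjusted p of 0.114. Without KCASP1Tg 4 it was 5.07 and passed, with an adjusted p of 0.0430.

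Signals of 3 further probe sets had the same form. Those of 1425247_a_at were 325, 1292 and 19201 at the lowest, median and highest KCASP1Tg array, against 102, 55.3, 38.1 and 86.5 on WT 1 to WT 4. Those of 1427756_x_at were 121, 517 and 11458 in KCASP1Tg, against 35.3, 23.1, 10.9 and 5.48. Those of 1425324_x_at were 127, 551 and 11818 in KCASP1Tg, against 26.3, 34.7, 27.1 and 3.23. Their log2 differences were 4.48, 5.44 and 5.29, with adjusted p of 0.206, 0.167 and 0.214, and without KCASP1Tg 4 they were 3.74, 4.61 and 4.46. Their log2 SD over the KCASP1Tg arrays was 2.23, 2.44 and 2.45, and that of the called Igk probe set 1425738_at was 2.03.

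The probe set 1427870_x_at was not dim in WT aortas. It had signals of 736, 2328 and 18029 at the lowest, median and highest KCASP1Tg array, against 508, 416, 378 and 409 on WT 1 to WT 4. Its difference was 2.58 (adjusted p = 0.406), and 2.01 without KCASP1Tg 4. The probe set 1452535_at had signals of 162, 226 and 2353 at the lowest, median and highest KCASP1Tg array, against 108, 55.8, 37.1 and 112 on WT 1 to WT 4, a difference of 2.16 (adjusted p = 0.450) that was 1.58 without KCASP1Tg 4. All 8 tested Ighm probe sets thus had every KCASP1Tg array above every WT array, against 1.98% of all tested probe sets. For 3 of the 8 no WT array reached 100, so they passed the filter through the KCASP1Tg arrays alone. None of the 8 was called by limma, whereas all 8 were higher at an unadjusted limma p under 0.05, against 4.52% of all tested. The 3 probe sets below the filter did not separate the groups. They had differences of 0.91 for 1451949_at (exact p = 0.476), 2.37 for 1427869_at (0.114) and -0.44 for 1426196_at (0.610), the only negative one of the 11.

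**Figure D1:**
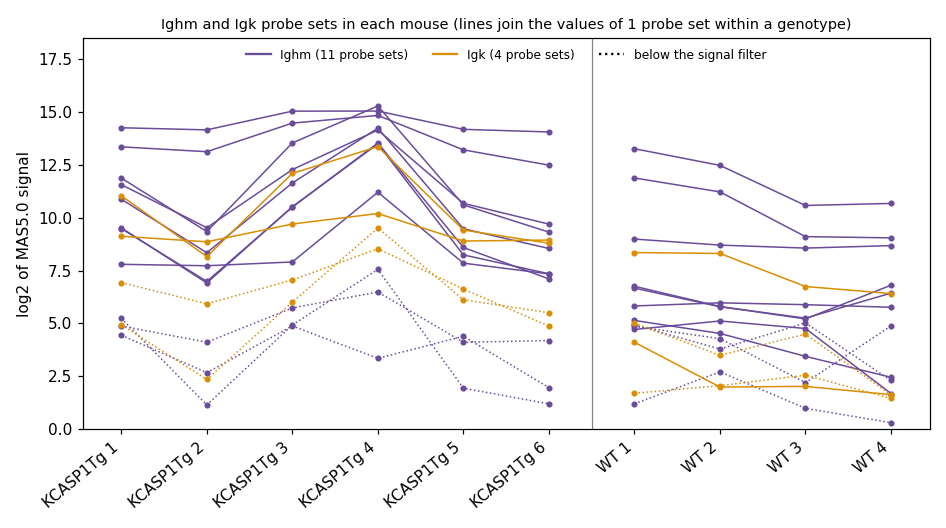
MAS5.0 signal on a log scale of each Ighm and Igk probe set, with 1 point per mouse and KCASP1Tg (n = 6) to the left of WT (n = 4). The Ighm probe set with the highest mean signal, 1427351_s_at, runs from 16954 to 33602 in KCASP1Tg and from 1526 to 9791 in WT, while the called Igk probe set lies between 286 and 10479 in KCASP1Tg and between 3.11 and 17.3 in WT.

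Jchain encodes the joining chain of polymeric IgM and IgA and is made by cells that secrete antibody. Its probe set 1424305_at had signals of 2383, 3245 and 24796 at the lowest, median and highest KCASP1Tg array, against 1373, 1262, 259 and 265 on WT 1 to WT 4. The groups did not overlap, and WT 1 and WT 2 again lay above WT 3 and WT 4. The log2 difference was 2.97 (SE 0.74, 95% interval 1.34 to 4.61) with an adjusted p of 0.262, and it was 2.49 without KCASP1Tg 4.

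Mzb1 encodes a chaperone of the endoplasmic reticulum in B cells and plasma cells that takes part in IgM assembly. Its signals on 1428947_at were 295, 480 and 6083 at the lowest, median and highest KCASP1Tg array, against 273, 191, 96.5 and 103 on WT 1 to WT 4. KCASP1Tg 4 stood far above the rest, and the lowest KCASP1Tg signal was only just above that of WT 1. The difference was 2.19 (SE 0.79, adjusted p = 0.496), and 1.56 without KCASP1Tg 4.

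Pou2af1 encodes OBF-1, a coactivator that binds octamer factors at immunoglobulin promoters in B cells and plasma cells. Signals on 1416957_at were 132, 235 and 3782 at the lowest, median and highest KCASP1Tg array, against 123, 50, 37.6 and 74.5 on WT 1 to WT 4. The order of mice was much like that of Mzb1, with KCASP1Tg 4 far above the others. The difference was 2.37 (SE 0.87, adjusted p = 0.505), and 1.66 without KCASP1Tg 4.

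Tnfrsf17 encodes BCMA, a receptor on plasma cells for the survival factors APRIL and BAFF. Its probe set 1420782_at was below the filter, with signals of 55.6, 64.0 and 182 at the lowest, median and highest KCASP1Tg array, against 32.6, 35.3, 42.3 and 45.0 on WT 1 to WT 4. The signals were low, but the groups did not overlap. The difference was 0.98, and 0.72 without KCASP1Tg 4. The exact p of 0.00952 is the smallest these group sizes allow. It was not adjusted for the number of probe sets.

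Derl3 encodes a derlin of the pathway that removes misfolded proteins from the endoplasmic reticulum, and it is a target of XBP1. Its signals on 1453677_a_at were 177, 278 and 808 at the lowest, median and highest KCASP1Tg array, against 170, 131, 71.7 and 149 on WT 1 to WT 4. The lowest KCASP1Tg array, KCASP1Tg 6, was scarcely above WT 1. The difference was 1.35 (SE 0.41, adjusted p = 0.405), and 1.08 without KCASP1Tg 4.

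**Figure D2:**
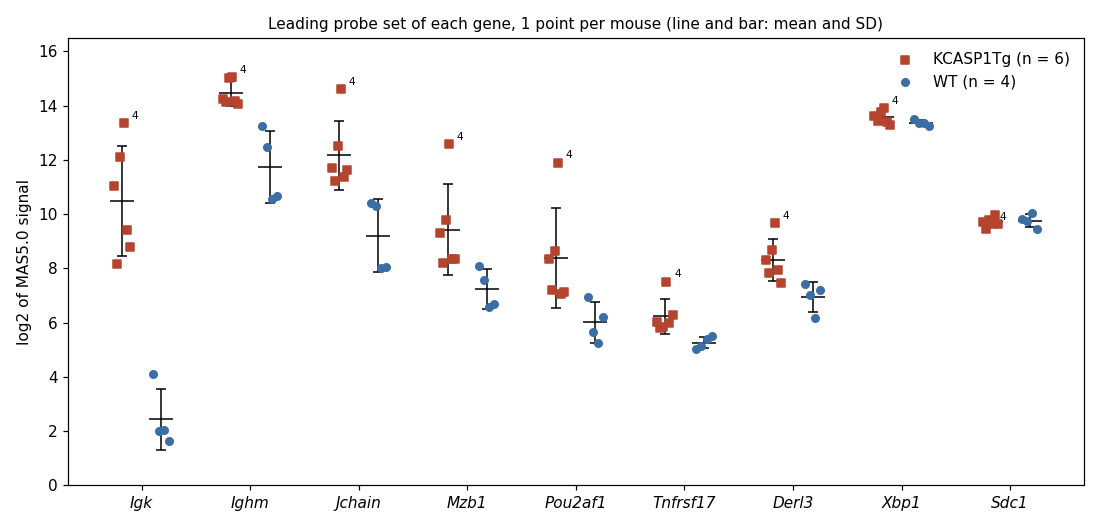
MAS5.0 signal (log axis) of the probe set with the highest mean signal of each of the 9 genes (for Igk, 1425738_at), with 1 point per mouse, KCASP1Tg (n = 6) to the left of WT (n = 4), lines and bars for mean and SD, and the point of KCASP1Tg 4 marked with a 4. For Jchain the KCASP1Tg mice lie between 2383 and 24796 and the WT mice between 259 and 1373, while for Xbp1 and Sdc1 the groups overlap.

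The promoters of these genes were searched for motifs of the 2 kinds of factor named above, as 250 bases before the RefSeq start on GRCm38.p6. RefSeq windows were at hand for 6 of the 9 genes, namely Jchain, Xbp1, Pou2af1, Tnfrsf17, Derl3 and Sdc1. The motifs were searched on both strands and do not overlap in these windows. The octamer ATGCAAAT, which OBF-1 works on, was in none of the 6 windows and in 1.6% of all 32851 windows. The UPRE letters TGACGTGG, bound by XBP1, were in 0.563% of all windows and in that of Pou2af1, on the gene's strand at bases -61 to -54. The ERSE letters, CCAAT and then CCACG after 9 bases of any kind, bound by ATF6 with NF-Y and also by XBP1, were in 0.113% of all windows and in that of Derl3, on the other strand at bases -156 to -138. These 2 windows, chr9:51213440-51213689 on the plus strand for Pou2af1 and chr10:75893148-75893397 on the plus strand for Derl3, are printed because they hold the only matches, with the fixed letters of the motif in capitals.
Pou2af1: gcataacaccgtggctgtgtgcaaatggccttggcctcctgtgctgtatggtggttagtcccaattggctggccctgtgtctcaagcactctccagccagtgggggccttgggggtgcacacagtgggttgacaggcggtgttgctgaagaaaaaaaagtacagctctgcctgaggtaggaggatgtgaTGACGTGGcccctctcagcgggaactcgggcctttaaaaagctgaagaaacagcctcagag
Derl3: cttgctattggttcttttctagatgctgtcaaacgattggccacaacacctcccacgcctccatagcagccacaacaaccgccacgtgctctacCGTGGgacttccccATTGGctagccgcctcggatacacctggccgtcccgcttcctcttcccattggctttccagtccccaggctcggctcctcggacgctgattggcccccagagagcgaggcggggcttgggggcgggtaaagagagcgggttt
A match says only that these letters are in the window. Derl3 and Pou2af1 had differences of 1.35 and 2.37, as given above, and the tested probe sets of the genes whose window had no match ran from -0.34 (Sdc1) to 2.97 (Jchain).

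Xbp1 and Sdc1, both widely used outside the B cell lineage, differed from the other members in that their groups overlapped on every probe set. Xbp1 encodes the transcription factor of the unfolded protein response that plasma cells need. Its probe set with the highest mean signal, 1437223_s_at, had signals of 10092, 11776 and 15223 at the lowest, median and highest KCASP1Tg array, against 11495, 10511, 10404 and 9612 on WT 1 to WT 4, a log2 difference of 0.21 (adjusted p = 0.768). The probe set 1420886_a_at had 8090, 9533 and 11926 at the lowest, median and highest KCASP1Tg array, against 9133, 8532, 7877 and 7663, a difference of 0.25 with a 95% interval of -0.04 to 0.54 (adjusted p = 0.699). An increase above 0.54 on the log2 scale was thus outside the interval of this probe set. The other 2 probe sets had differences of 0.21 (1420011_s_at, adjusted p = 0.743) and 0.19 (1420012_at, adjusted p = 0.802). KCASP1Tg 4 was the highest array on all 4, at 1.15 to 1.37 times the median of the other KCASP1Tg arrays. Without it the differences were 0.15 for 1437223_s_at, 0.19 for 1420886_a_at, 0.16 for 1420011_s_at and 0.15 for 1420012_at.

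Sdc1 encodes syndecan-1, a cell surface proteoglycan by which plasma cells are sorted and which epithelia carry too. Its 4 differences were all negative and none was called. On 1415943_at the signals were 691, 821 and 1012 at the lowest, median and highest KCASP1Tg array, against 905, 849, 1050 and 707 on WT 1 to WT 4, a difference of -0.07 (adjusted p = 0.971). The largest was that of 1415944_at, with 195, 250 and 331 at the lowest, median and highest KCASP1Tg array, against 365, 303, 390 and 239, a difference of -0.34 with a 95% interval of -0.76 to 0.08 (adjusted p = 0.720). The probe sets 1437279_x_at and 1448158_at had differences of -0.26 (adjusted p = 0.785) and -0.22 (0.921). KCASP1Tg 4 was the highest KCASP1Tg array on 1 of the 4, 1437279_x_at, at 827, and WT 1 and WT 3 were above every KCASP1Tg array there and on 1415944_at. Without KCASP1Tg 4 the differences were -0.05 for 1415943_at, -0.31 for 1415944_at, -0.29 for 1437279_x_at and -0.30 for 1448158_at. The 9 epithelial markers had a median difference of -0.32, with 2 of 9 positive, and mean log2 signals of 5.80 to 6.35 on the KCASP1Tg arrays and 6.03 to 6.87 on the WT arrays. The liver markers given above were highest on WT 1 and WT 3. The part of either list in the Sdc1 values was not tested.

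**Figure D3:**
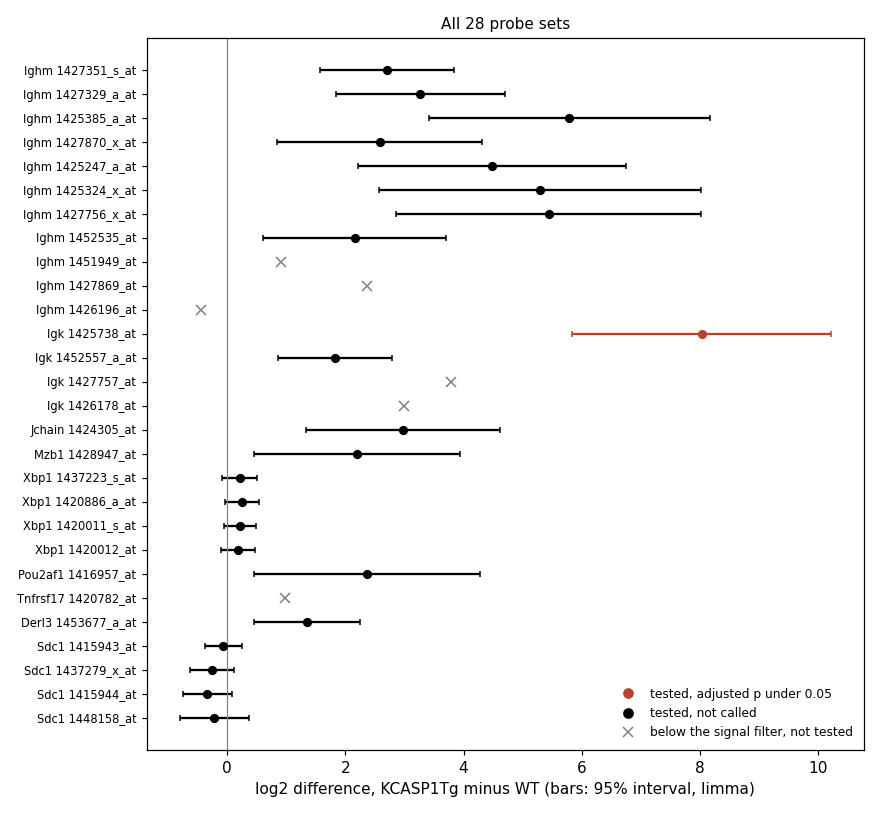
Log2 difference of KCASP1Tg (n = 6) minus WT (n = 4) for each of the 28 probe sets, with 95% intervals of the limma fit as bars. The called Igk probe set, at 8.03, is red, probe sets below the signal filter are crosses, and the Xbp1 and Sdc1 probe sets lie next to 0, between -0.34 and 0.25.

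Over all members, 1 of the 22 tested probe sets was called higher and 0 were called lower, where 0.0686% of all tested probe sets were called higher and 0.0% lower. At an unadjusted limma p under 0.05, 14 were higher and 0 lower, against 4.52% and 3.42% of all tested. The exact Mann-Whitney test with adjustment called 0 of them, as it did for all probe sets. Of the 28 probe sets, 23 had a positive difference, against 49.4% of the 45037 probe sets, and of the 22 tested, 18 did, against 49.6% of all tested. In 15 of the 28 every KCASP1Tg array lay above every WT array, which was so in 1.45% of the 45037 probe sets, and in 0 every KCASP1Tg array lay below, against 0.766%. Among the 22 tested these counts were 14 and 0, against 1.98% and 0.949% of all tested, but the filter lets in a probe set that is dim in 1 group. The 15 were 8 of Ighm, 2 of Igk and those of Jchain, Mzb1, Pou2af1, Tnfrsf17 and Derl3. The median difference over the 28 was 2.17, and 1.58 without KCASP1Tg 4, where the median over all tested probe sets was -0.00 with all arrays.

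Many of the probe sets had a common order of mice. The 11 of Ighm and 4 of Igk may read the same sequences, so they do not count as separate observations. KCASP1Tg 4 was the highest array in 23 of the 28, which include 6 not tested, against 23.2% of all tested probe sets. KCASP1Tg 3 followed it in 20, and KCASP1Tg 1 came next in 17. KCASP1Tg 4 was 0.485 to 49.1 times the median of the other KCASP1Tg arrays, with a median of 3.52. The lowest array was a WT array in 23, and WT 3 or WT 4 in 21. For the order after KCASP1Tg 4 and for the lowest array no share over all probe sets was computed. Without KCASP1Tg 4, 2 member probe sets were called, against 0.236% of those tested, and with array weights 7 were, against 0.777%. Those weights were lowest for KCASP1Tg 4 (0.281) and WT 4 (0.376).

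Other immunoglobulin genes had positive differences and no call. Variable segments and constant regions on the array made a list of 19 genes, each read from its brightest probe set. All 19 differences were positive, with a median of 3.11, and 2.51 without KCASP1Tg 4. Of the 9 tested, 0 were called by limma and 8 were higher at an unadjusted p under 0.05, against 4.52% of all tested. In 8 of the 19 every KCASP1Tg array lay above every WT array, against 1.45% of the 45037 probe sets. The kappa segment Igkv9-120 had signals of 265 to 11389 on the KCASP1Tg arrays and 84.7, 61.0, 16.9 and 71.8 on WT 1 to WT 4, a difference of 4.66 (adjusted p = 0.129). Igkv6-14 had signals of 126 to 3114 on the KCASP1Tg arrays and 46.7, 33.5, 16.4 and 33.0 on WT 1 to WT 4. Its difference was 3.65 (adjusted p = 0.135), and it passed without KCASP1Tg 4 at 3.04 (adjusted p = 0.0121). For Igkv9-120 and Igkv6-14 no WT array reached the signal of the filter. These genes were thus tested through the KCASP1Tg arrays alone, and WT signals this low set no reliable size of a difference. The lambda segment Iglv1 had a difference of 4.40 (adjusted p = 0.203). A further kappa segment, Igkv8-30, had signals of 3417 to 27255 on the KCASP1Tg arrays and 1759, 1838, 260 and 499 on WT 1 to WT 4, a difference of 3.12 (adjusted p = 0.215). It had the split of WT 1 and WT 2 from WT 3 and WT 4 seen for Jchain and for the Ighm probe set with the highest mean signal.

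B cell markers had smaller positive differences. Of 22 genes 21 were measured, and all 21 differences were positive, with a median of 1.02 that was 0.45 without KCASP1Tg 4. None of the 13 tested was called, and 2 were higher at an unadjusted limma p under 0.05, against 4.52% of all tested. The groups were apart in 1 of the 21, against 1.45% of the 45037 probe sets. Cd79a, a signalling chain of the B cell receptor, had a difference of 2.06 (adjusted p = 0.617), Cd79b, its partner, 1.31 (0.747), Ms4a1, which encodes CD20, 1.47 (0.754) and Btk, a kinase of that receptor, 1.86 (0.568). Without KCASP1Tg 4 these differences were 1.5 for Cd79a, 0.69 for Cd79b, 0.75 for Ms4a1 and 1.43 for Btk. Their mean log2 signal was 9.98 on KCASP1Tg 4, 6.44 to 7.55 on the other KCASP1Tg arrays and 6.10 to 6.95 on the WT arrays. KCASP1Tg 1 (7.55) and KCASP1Tg 3 (7.45) thus also lay above every WT array on this mean, and KCASP1Tg 2, 5 and 6 lay within the WT range. On the mean of the 19 immunoglobulin genes all 6, at 6.40 to 10.09, lay above the WT arrays, at 4.06 to 5.55. T cell markers behaved much as B cell markers did, at 9.13 on KCASP1Tg 4, 5.32 to 6.13 on the other KCASP1Tg arrays and 5.05 to 5.85 on the WT arrays, with 0 of 5 tested called and a median over the 10 measured of 1.12, or 0.57 without KCASP1Tg 4. The germinal centre markers had a median of 0.19 over 6 measured genes, with 0 of 3 tested called.

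Of the other factors that plasma cells use, 11 of 12 genes were measured and 9 were tested. Among these, 1 was called higher and 0 lower, against 0.0686% and 0.0% of all tested probe sets. The called gene was Tent5c, a poly(A) polymerase that extends immunoglobulin mRNA tails in B cells and is used by other cells as well. Its signals were 1319 to 2711 on the KCASP1Tg arrays and 546, 364, 379 and 366 on WT 1 to WT 4, and it rose by 2.04 (adjusted p = 0.00633). Here KCASP1Tg 3 and not KCASP1Tg 4 was highest. Eaf2 had a difference of 1.08 (adjusted p = 0.512), the homing receptor Ccr10 had 1.64 (0.561), and Irf4, a transcription factor of plasma cells and other lymphocytes, had -0.72 (0.722). Prdm1, a further factor of the list, had -0.03 (limma adjusted p = 0.999) with overlapping groups, and -0.34 without KCASP1Tg 4. Of the 11 differences, 9 were positive. The median over the 11 was 0.84, and 0.32 without KCASP1Tg 4.

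The genes of the secretory pathway, many of them targets of XBP1, stayed near 0 as Xbp1 did. All 30 were tested, 0 were called and 1 had an unadjusted p under 0.05. Of these, 23 differences were positive, with a median of 0.15 that was 0.04 without KCASP1Tg 4. The range was -0.12 to 0.64, and the highest was that of Edem1 (adjusted p = 0.671). The other 3 genes with the smallest p were Txndc5 at 0.48 (adjusted p = 0.704), Pdia3 at 0.30 (0.722) and Txndc11 at 0.28 (0.608). Without KCASP1Tg 4, Edem1 was at 0.43 and Txndc5 at 0.31. Their mean log2 signal was 11.57 on KCASP1Tg 4, 10.87 to 11.08 on the other KCASP1Tg arrays and 10.90 to 11.01 on the WT arrays.

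Among ligands that draw or keep B cells and plasma cells, Cxcl13 had the largest difference. CXCL13 is the chemokine that draws B cells into follicles. Its signals were 2152 to 9023 on the KCASP1Tg arrays and 1205, 1170, 369 and 246 on WT 1 to WT 4. The groups did not overlap, the difference was 2.63 (SE 0.54) and the adjusted p was 0.135, and without KCASP1Tg 4 the difference was 2.37. Cxcl12 and Tnfsf13b, which encodes BAFF, each had 0.58 (adjusted p = 0.650 and 0.683), and without KCASP1Tg 4 they had 0.38 and 0.34. Of the 8 measured ligands 4 were tested and 0 called. The receptors that bind antibody had 0 of 7 tested called, and 5 higher at an unadjusted limma p under 0.05, against 4.52% of all tested. In 5 of 9 measured every KCASP1Tg array lay above every WT array, against 1.45% of the 45037 probe sets. Of the 9 differences 6 were positive. The negative ones were Pigr (-2.84) and Fcamr (-0.80), not tested, and Fcgrt (-0.07, limma adjusted p = 0.985). Pigr had signals of 2210, 41.3, 321 and 78.0 on WT 1 to WT 4 and 9.41 to 42.3 on the KCASP1Tg arrays. The liver markers had the same order of WT mice, with means of 13.81, 7.01, 12.24 and 9.05 on WT 1 to WT 4. The part of liver tissue in the Pigr values was not tested. Fcgr1, the high-affinity IgG receptor, had signals of 177 to 289 on the KCASP1Tg arrays and 136, 130, 131 and 99.8 on WT 1 to WT 4, a difference of 0.83 (adjusted p = 0.109). The low-affinity receptors had 0.97 for Fcgr3 (adjusted p = 0.255), 1.34 for Fcgr4 (0.284) and 0.97 for Fcgr2b (0.308). Without KCASP1Tg 4 the differences were 0.76 for Fcgr1, 0.81 for Fcgr3, 1.07 for Fcgr4 and 0.81 for Fcgr2b.

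**Figure D4:**
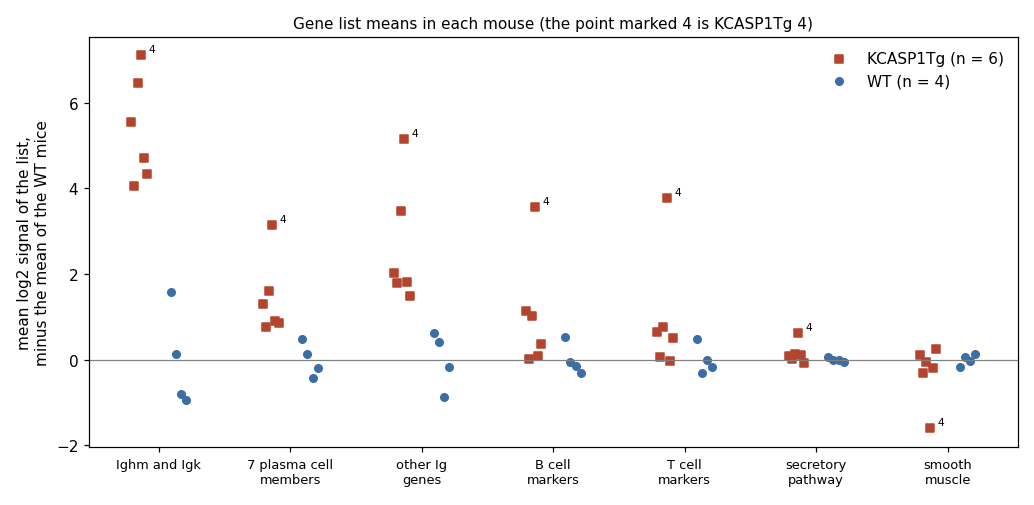
Gene list means on the log2 scale, with 1 point per mouse, KCASP1Tg (n = 6) to the left of WT (n = 4), and the point of KCASP1Tg 4 marked with a 4. The mean log2 signal of the immunoglobulin list was 6.40 to 10.09 in KCASP1Tg and 4.06 to 5.55 in WT. In the B cell list KCASP1Tg 4 (mean log2 signal 9.98), KCASP1Tg 1 (7.55) and KCASP1Tg 3 (7.45) lie above the WT mice, whose highest mean was 6.95. The other 3 lie within the WT range.

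The genes whose log2 signal ran most like that of Jchain over the 10 arrays were listed as a description, since the arrays share their tissue and their groups. Outside the members, the highest Pearson correlations with Jchain were those of Igkv8-30 (0.979), Cxcl13 (0.970 and 0.967 for its 2 probe sets), Rnpc3 (0.970) and Igha (0.963 and 0.956), the heavy chain of IgA. Igsf6 and Nup98 followed at 0.963 each, Clec4a3 at 0.958 and Fermt3 at 0.957. For the Ighm probe set 1427351_s_at the nearest were Fermt3 (0.980), an integrin activator of blood cells, Cxcl13 (0.964 and 0.960), Cd164l2 (0.951) and Igkv8-30 (0.950). Gda (0.948), Igsf6 (0.945), Pcdh20 (0.943), Gpr160 (0.943) and Ccl9 (0.942) came after them. Within the 6 KCASP1Tg arrays alone the correlations with Ighm were lower for several, at 0.697 for Fermt3, 0.478 for Cd164l2, 0.418 for Pcdh20 and 0.616 for Gpr160, whereas Igkv8-30 had 0.938. Those with Jchain were 0.879 to 0.978 within these 6. Cxcl13, Igkv8-30, Fermt3 and Igsf6 were near both.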

How the data were processed

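Abdominal aorta RNA of 6 KCASP1Tg and 4 WT mice was hybridised to 1 array each. The authors computed the deposited intensity, 1 per probe set, with MAS5.0, which corrects for background and mismatch, and brought every array to a trimmed mean of 500. Deposited intensities under 1 were raised to 1 before the log2 transformation. Of 45101 probe sets, 64 controls were left out, and of the other 45037, 34945 had 1 gene symbol, 932 several and 9160 none. A current gene table held 34741 of the 34945. The filter was a signal of 100 or more on 4 or more arrays. The test was limma (3.58.1, in R 4.3.3) on genotype with Benjamini-Hochberg adjustment, beside a two-sided exact Mann-Whitney test. Both tests took the mouse as the unit. The limma p sets the difference between the groups against the spread between mice, and the exact test uses ranks. The number of arrays limits the precision. The sources used here give neither batch nor scan date.

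The members and gene lists were chosen with earlier results of these data known. Every probe set of the members is named, as are up to 4 genes of a list with the smallest p among its tested genes, its defining markers, and the 10 probe sets nearest to Jchain and to the Ighm probe set of highest mean signal. Other genes in lists were read from the probe set with the highest mean signal. On simulated data of 26242 probe sets, 68%, 90%, 100% and 100% of those changed by a log2 value of 1, 2, 4 and 5 were recovered, and 15 of 194 calls were false. The changed probe sets were picked at random and had the same spread in both groups. The median log2 SD over the KCASP1Tg arrays was 0.29 for all tested probe sets and 2.45 for Ighm 1425324_x_at. These shares thus do not hold for members with such a spread.

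Alternatives were a floor of 16, a pseudocount of 50, no filter or a filter of 200, array weights, quantile normalization, centring on the median, a trend with intensity, the replicate number as a block, the exact test, an adjusted p under 0.01, a 2-fold minimum and each array left out in turn. Leaving out KCASP1Tg 3 with KCASP1Tg 4, or WT 1 with WT 2, was added after seeing the data. Python 3.11.15 with matplotlib 3.10.9 drew the figures.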

Additional observations from a re-analysis of the deposited data

Results flagged for a closer look

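Within each probe set and group, the array farthest out was compared with the spread of the rest by Dixon's ratio, the gap to the nearest other array over the whole range, both taken on the log2 scale. Of 56 groups examined, 7 had an array beyond the 95% critical value, where chance gives about 1 in 20. In 4 of the 7 the array was KCASP1Tg 4 as the highest. Pou2af1 was 3782 on KCASP1Tg 4 and 132 to 400 on the other KCASP1Tg arrays (ratio 0.670). Mzb1 was 6083 on KCASP1Tg 4 and 295 to 890 on the others (0.635). Tnfrsf17 was 182 on KCASP1Tg 4 and 55.6 to 78.4 on the others (0.711), and the Ighm probe set 1452535_at was 2353 on KCASP1Tg 4 and 162 to 240 on the others (0.854). The Sdc1 probe set 1437279_x_at was 567 on KCASP1Tg 2 and 731 to 827 on the other KCASP1Tg arrays (0.675). Among WT mice, the called Igk probe set 1425738_at was 17.3 on WT 1 and 3.11 to 4.07 on the others (0.842), and the Ighm probe set 1425324_x_at was 3.23 on WT 4 and 26.3 to 34.7 on the others (0.883), all of them signals near the bottom of the scale.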

How the results depend on the processing

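The number of member probe sets called higher was 1, and it was 0 with a pseudocount of 50 and at an adjusted p under 0.01. The exact Mann-Whitney test also gave 0, but its smallest possible p could not pass the adjustment here, so it could call no probe set. The number was 7 with array weights and 2 without KCASP1Tg 3 and KCASP1Tg 4. With the replicate number as a block over mice 1 to 4 of each group it was 0. These numbers were not taken to pair the mice, since nothing in the labels ties them and the deviations of same-numbered mice correlated at 0.11, -0.31, -0.43 and -0.33. Leaving out 1 array at a time gave 0 to 2, with 0 without KCASP1Tg 1, WT 2, WT 3 or WT 4, and 2 without KCASP1Tg 4 or WT 1. Without WT 1 and WT 2 it was 1, now the Ighm probe set 1427351_s_at, with a log2 difference of 3.82 (limma adjusted p = 0.0105), while Igk 1425738_at had an adjusted p of 0.124. The number called lower was 0 under every alternative run. Igk 1425738_at passed in 14 of 22 alternatives, with adjusted p of 0.00312 to 0.362. Over the 22 tested probe sets and the alternatives, 463 of 483 values kept their direction and their side of the threshold, 8 no longer passed, 10 newly passed and 2 changed sign. Both sign changes were in Sdc1, where 1415943_at was 0.0259 without WT 3, with a range of -0.16 to 0.0259 over single arrays left out, and 1448158_at was 0.0023 without WT 1 and WT 2. The cause of these changes was not tested. Pou2af1 was not tested with a filter of 200. Signals below 100, as of Igk 1425738_at in WT aortas and of Tnfrsf17, are close to the background and set no reliable size of a difference.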

Other observations

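Heavy chain classes other than mu were looked up after their values were seen. Igha, the heavy chain of IgA, had signals on 1421653_a_at of 2547, 1745, 6175, 27741, 2946 and 1607 on KCASP1Tg 1 to 6, against 1157, 153, 119 and 114 on WT 1 to WT 4, a log2 difference of 4.15 with an adjusted p of 0.167 by limma. Every KCASP1Tg array lay above every WT array. For Ighg3, the heavy chain of IgG3, the groups overlapped on 1427503_at, the only 1 of its 4 probe sets that was tested. Signals there were 2046, 538, 11795, 16674, 1052 and 324 on KCASP1Tg 1 to 6, against 2541, 3826, 111 and 469 on WT 1 to WT 4, a difference of 1.28 with an adjusted p of 0.904, and 0.68 without KCASP1Tg 4. WT 1 and WT 2 were above 4 of the 6 KCASP1Tg arrays on this probe set. Of the 3 below the filter, 1426199_x_at had 2.83 to 102 on the KCASP1Tg arrays and 0.762 to 1.59 on the WT arrays with no overlap, a difference of 3.62, and on 1426198_at and 1447998_at the groups overlapped, with differences of 0.11 and 0.94. The kappa segment Igkv15-103 had a signal of 535 on WT 2, against 11.3, 7.67 and 4.6 on the other WT arrays, and 73.1 to 3165 on the KCASP1Tg arrays, a difference of 4.03 with an adjusted p of 0.480. A single WT mouse thus had this segment at a signal within the range of the KCASP1Tg mice.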
